A study of Mus musculus with 4 samples.

Results

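The chaperone and endoplasmic reticulum (ER) protein folding genes were chosen by gene symbol. They comprise the J-domain families Dnaja, Dnajb and Dnajc, the heat shock protein families Hspa to Hspe and Hsp90, the protein disulfide isomerases (Pdia) and Ero1 oxidases, the Fkbp prolyl isomerases, the Sec61 and Ssr translocon subunits, Calr, the Creld and Herpud genes, the stress transcription factors Xbp1, Atf4 and Ddit3, the Bag co-chaperones and the Cct chaperonin subunits. Dnajc6 and Dnajc12 were left out by the rule. The rule found 84 genes with 104 probes among 8980 named genes with 12484 probes. The rule uses no measured value. The symbol alone also brought in Hspbap1, Dnajc8, Dnajc17, Dnajc24 and Dnajc27, which are not established folding factors. Among the symbols the rule allows, Canx, Sdf2l1, Manf, Atf6, Hspa1a, Hspa1b, Hsp90ab1, Hspb1 and Ero1a had no named probe and were not analysed here.

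RNA was measured on 4 single-colour Illumina mouse bead arrays, 1 for each group. All groups were neural precursor cells from the cortex of ICR mouse embryos at embryonic day 12, grown in serum-free N2 medium with the mitogens bFGF and EGF. The Control cells received retrovirus with the empty vector pCL, the Nurr1 cells a virus with Nurr1, the Foxa2 cells a virus with Foxa2, and the Nurr1+Foxa2 cells both factors. After 2 hours with virus supernatant and the withdrawal of both mitogens, the cells differentiated for 2 days. Nurr1, the product of Nr4a2, is a nuclear receptor of dopamine neurons, and Foxa2 is a forkhead factor of the midbrain floor plate. The design text names synergy of the pair in dopamine precursors as its question. The share of cells that took up virus, and the share with both factors in 1 cell, are not given in the labels, so each array averages infected and uninfected cells.

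Proteins that enter the ER pass through the Sec61 channel, fold with the HSP70 and HSP90 chaperones of the lumen and the lectin chaperones, and receive disulfide bonds from protein disulfide isomerases that Ero1 oxidases recharge. Neurons use this route for receptors, channels and secreted peptides. When unfolded protein collects in the ER, the sensors Ire1, Perk and Atf6 start the unfolded protein response, in which the transcription factors Xbp1, Atf4 and the cleaved Atf6 raise folding and degradation genes. In the cytosol and nucleus HSP70, its J-domain partners and BAG exchange factors and the CCT chaperonin do the corresponding work, and heat shock factor 1 governs their response to stress.

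The promoter element through which Atf6 and Xbp1 act is shown first, because the members that carry it are described as a group further on. RefSeq promoters (mouse build GRCm38.p6, from 250 bases before to 50 bases after each start) were held for 72 of the 84 members, with 92 promoters. The ER stress response element was searched on both strands as CCAAT, any 9 bases and CCACG. It lay in 39 of 32851 promoters, or 0.119%, and in 7 of the 92 member promoters, or 7.61%, each of a different gene. The stretches below run 5′ to 3′ on the strand of the gene, with 15 bases on either side of the element and its conserved ends in capitals. Where the element lies on the opposite strand these read CGTGG and ATTGG.
Ero1b: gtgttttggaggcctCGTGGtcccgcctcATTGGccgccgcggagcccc
Pdia6: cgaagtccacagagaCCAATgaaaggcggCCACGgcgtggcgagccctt
Calr: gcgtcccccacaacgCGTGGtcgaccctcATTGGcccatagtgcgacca
Creld2: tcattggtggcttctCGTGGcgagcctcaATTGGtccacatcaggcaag
Hsp90b1: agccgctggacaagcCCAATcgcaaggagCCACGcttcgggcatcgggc
Hsp90b1: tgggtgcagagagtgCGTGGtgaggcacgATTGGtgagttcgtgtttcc
Dnajc3: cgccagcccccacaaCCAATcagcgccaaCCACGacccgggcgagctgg
Hspa5: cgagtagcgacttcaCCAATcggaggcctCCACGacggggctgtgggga
They lie at chr13:12565667-12565715 (plus strand), chr12:17266476-17266524 (plus strand), chr8:84847060-84847108 (minus strand), chr15:88819505-88819553 (plus strand), chr10:86705623-86705671 (minus strand) and chr10:86705518-86705566 (minus strand), chr14:118937812-118937860 (plus strand) and chr2:34772010-34772058 (plus strand), in the order shown. The Hsp90b1 promoter held the element 2 times. A match to these letters is a description and does not show that a factor binds there.

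The CCACG end alone was found in 62.0% of member promoters against 32.8% of all promoters, and CCAAT alone in 46.7% against 37.4%. Promoters of Ero1b and Pdia5 are given whole, because Ero1b had the largest measured difference between arrays and Pdia5 the largest departure from the sum of the single-factor differences, and they differ in the element. Capitals mark every CCACG and CCAAT on either strand.
Ero1b: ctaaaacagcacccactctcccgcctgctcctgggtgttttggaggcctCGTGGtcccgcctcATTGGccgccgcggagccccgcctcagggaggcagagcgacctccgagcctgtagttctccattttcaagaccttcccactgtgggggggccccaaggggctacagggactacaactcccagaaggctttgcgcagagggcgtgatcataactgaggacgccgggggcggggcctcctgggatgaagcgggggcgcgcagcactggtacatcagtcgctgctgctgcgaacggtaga
Pdia5: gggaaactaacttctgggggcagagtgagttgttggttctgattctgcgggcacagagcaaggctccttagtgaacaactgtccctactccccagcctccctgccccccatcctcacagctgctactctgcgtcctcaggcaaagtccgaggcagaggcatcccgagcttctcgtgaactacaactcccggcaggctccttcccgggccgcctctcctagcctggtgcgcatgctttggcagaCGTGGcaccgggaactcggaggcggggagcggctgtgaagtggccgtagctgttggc
The Ero1b stretch is chr13:12565633-12565932 (plus strand) and the Pdia5 stretch chr16:35490824-35491123 (minus strand). Ero1b held both ends of the element at the required distance, while Pdia5 held 1 CGTGG and no CCAAT on either strand. The promoters of Fkbp11, Fkbp14 and Dnajc15 also lacked the full element. Other letter motifs were rare among member promoters. The heat shock element, taken as GAA and TTC in turn for 3 units spaced by 2 bases, was in the promoters of Hspd1, Hspe1 and Dnajb6, 4.35% of member promoters against 0.603% of all. Hspd1 and Hspe1 are neighbours that start in opposite directions, and the stretches that follow are the same DNA read from either gene, with a pair of overlapping matches of which 1 is in capitals.
Hspd1: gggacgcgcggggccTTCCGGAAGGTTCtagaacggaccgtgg
Hspe1: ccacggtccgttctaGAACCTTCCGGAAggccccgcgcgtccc
Both lie at chr1:55088049-55088091, with Hspd1 on the minus and Hspe1 on the plus strand. The Nurr1 monomer site AAAGGTCA was in promoters of Hspd1, Hspe1 and Dnajb13 (3.26% against 1.51%), and the forkhead core TGTTTAC in those of Dnajb12 and Dnajc10 (2.17% against 3.65%). The unfolded protein response element TGACGTGG was in that of Fkbp1b (1.09% against 0.676%). An amino acid response motif, TGATG followed after 2 bases by AAT, was in no member promoter against 1.16% of all.

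The median deposited signal was between 133.6 and 149.2 on the 4 arrays, and between 42.7% and 44.6% of all 25697 probes were detected (detection p-value under 0.01). The Nr4a2 signal was 166.8 on the Control array, 1669.4 with Nurr1, 215.8 with Foxa2 and 1620.4 with both, so the arrays labelled with Nurr1 were the high ones. Foxa2 had no named probe. Of the 5 dopamine neuron and floor plate markers, 0, 3, 4 and 5 were detected on the Control, Nurr1, Foxa2 and Nurr1+Foxa2 arrays. All 9 named neuron markers and all 11 named progenitor and radial glia markers were detected on every array, as the labelled cell type requires. Aif1, the only named microglia marker, was undetected on every array, and so were Kdr of endothelial cells and Col1a1 and Lum of mesenchymal cells. Of the other named markers of these lists, Cspg4 (endothelial cells and pericytes, and oligodendrocyte precursors) and Twist1 (mesenchymal) were detected on every array, and Dcn (mesenchymal) on the 2 arrays with Nurr1. Their signals were 229.5 to 417.6 for Cspg4 and at most 285.8 for Twist1, and 226.8 and 205.8 for Dcn where it was detected.

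With 1 array a group there is no replicate error, no test was possible, and all that follows describes these 4 arrays. The only error the files allow is the spread between different probes of 1 gene. Its standard deviation, over 1925 to 2008 genes with at least 2 detected probes, was 0.18 to 0.24 on the log2 scale in the 5 comparisons. Variation from culture to culture, or from one infection or RNA extraction to another, is not part of it. Signals are the deposited, linear ones; differences are log2 differences after background correction and quantile normalization, so they do not equal ratios of the signals. A gene was counted as higher or lower at a difference of at least 2-fold with the brighter array detecting it. The 3 comparisons with Control share the Control array, and the 3 comparisons that use the Nurr1+Foxa2 array share that array.

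Of the 84 members, 70 were detected on all 4 arrays, 7 on some and 7 on none. In total 10 members differed at least 2-fold in at least 1 of the 5 comparisons, and 0 members were at least 2-fold lower in any of them. Nurr1 alone gave 1 member higher than Control and 0 lower, of 74 measured, where 4.43% of all measured genes were higher and 2.83% lower. Foxa2 alone gave 2 higher and 0 lower of 72, against 3.58% and 1.5% of all genes. Both factors gave 7 higher and 0 lower of 73, against 7.18% and 4.81%. Among genes detected on all 4 arrays, 5 of 70 members were higher with both, beside 421 of 7127 genes. Set against the array with Nurr1 alone, the array with both factors had 7 members higher and 0 lower of 75, where the background was 4.43% higher and 1.74% lower. Set against Foxa2 alone it had 5 higher and 0 lower of 74, against 4.84% and 3.86%. The share of members that were higher was below that of all genes for each factor alone and above it in the 3 comparisons of both factors, but these counts are small. At 1.5-fold the members higher against Control numbered 1 with Nurr1, 4 with Foxa2 and 11 with both, where 8.97%, 8.24% and 13.7% of all genes were. Those lower numbered 4, 0 and 4, where 8.53%, 5.88% and 13.6% were. With both factors 14 were higher and 1 lower against Nurr1 (9.61% and 7.14% of all genes), and 7 higher and 1 lower against Foxa2 (9.77% and 9.82%). The count against Nurr1 was the one furthest above the share of all genes. The median difference over all members was 0.00, 0.00, 0.01, 0.03 and 0.03 in these 5 comparisons, beside 0.00, 0.00, -0.01, -0.02 and 0.00 over all named genes. Genes without a difference entered these medians as 0. In bulk RNA, fewer cells of a type and less RNA per cell cannot be told apart.

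**Figure D1:**
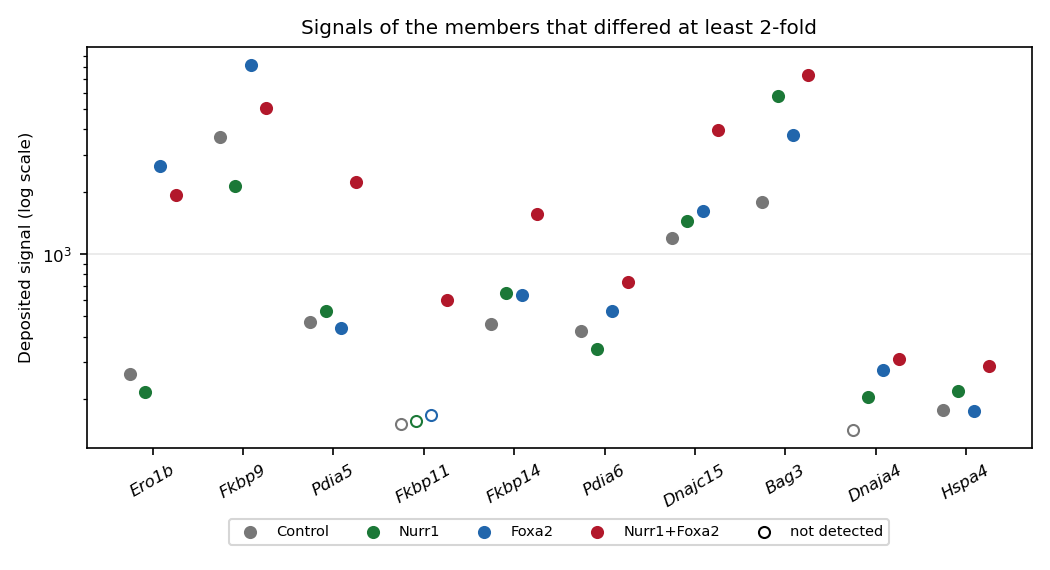
Deposited signal (log axis) of the 10 members that differed at least 2-fold, 1 point for each array, with open points where the gene was not detected. Ero1b was high on the 2 arrays with Foxa2, Pdia5, Fkbp11, Fkbp14 and Dnajc15 were highest with both factors, and Bag3 was lowest on the Control array.

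The largest measured difference of any member was in Ero1b, the oxidase that passes electrons from protein disulfide isomerase to oxygen and is best known from pancreatic beta cells. Its signal was 262.9 on the Control array, 214.9 with Nurr1, 2670.5 with Foxa2 and 1924.7 with both. The 2 arrays with Foxa2 stood apart from the 2 without it. Ero1b was 11.6-fold higher with Foxa2 than in Control (3.54), 8.38-fold higher with both factors than in Control (3.07) and 13.0-fold higher with both than with Nurr1 (3.70), the last being 8.34-fold without background correction. With Nurr1 alone it was -0.63, and with both factors -0.47 relative to Foxa2 alone, each under 2-fold. The sum of the single-factor differences fell short of the value with both by 0.16, within the spread between probes.

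Pdia5, a protein disulfide isomerase, followed another pattern. Its brighter probe gave 472.6 on the Control array, 532.3 with Nurr1, 442.3 with Foxa2 and 2222.4 with both. Only the array with both factors was high. Pdia5 there was 4.61-fold above Control (2.20), 4.45-fold above Nurr1 (2.15) and 6.22-fold above Foxa2 (2.64), while Nurr1 alone gave 0.05 and Foxa2 alone -0.43. The second Pdia5 probe, detected on 3 arrays, gave 173.7, 200.9, 171.3 and 646.0, and differences of 2.33, 2.10 and 2.72 in the same comparisons. Both probes thus had the same order of size in these comparisons, and they differed by less than the spread between probes.

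Pdia6, a disulfide isomerase that works beside BiP, was highest with both factors. Its signal was 427.8 on the Control array, 348.0 with Nurr1, 531.0 with Foxa2 and 737.0 with both. After normalization it was -0.54 with Nurr1 and 0.06 with Foxa2 against Control, and 0.64 with both. It was 2.27-fold higher with both factors than with Nurr1 (1.18). The other 2 measured isomerases, Pdia3, which works with the lectin chaperones, and Pdia4, moved less. Pdia3 differed by -0.12, 0.20 and 0.44 from Control with Nurr1, Foxa2 and both, and Pdia4 by -0.42, 0.20 and 0.17. Over the 5 disulfide genes the median was -0.42 with Nurr1, 0.20 with Foxa2 and 0.64 with both against Control, and 1.18 with both against Nurr1. All 5 were above 0 in the last of these and 4 of 5 were below 0 with Nurr1 alone.

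The FKBP proteins, which catalyse turns at proline, include 4 that lie in the ER. Fkbp11, an ER-membrane FKBP abundant in secretory cells, had signals of 150.8 on the Control array, 157.0 with Nurr1 and 167.6 with Foxa2, none of them detected, and 598.7 with both. It was detected only on the array with both factors, where it was at least 4.99-fold above Control, at least 5.60-fold above Nurr1 and at least 5.86-fold above Foxa2. Without background correction these values were 3.10-fold, 3.29-fold and 3.36-fold. A bound is written because the dimmer value was raised to the lowest signal detected on that array. Fkbp14, an ER collagen foldase, had 458.6, 648.6, 631.7 and 1561.6 on the arrays in the same order. Fkbp14 was 3.28-fold above Control with both (1.71), 2.41-fold above Nurr1 (1.27) and 2.77-fold above Foxa2 (1.47), with 0.44 for Nurr1 alone and 0.24 for Foxa2 alone.

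Fkbp9, another ER FKBP, was high with Foxa2 and low with Nurr1. Its signals were 3668.8 on the Control array, 2138.1 with Nurr1, 8163.5 with Foxa2 and 5056.2 with both. It was 2.04-fold higher with Foxa2 than in Control (1.03), although with scaling to a common median the difference was 0.92, under 2-fold. It was 2.26-fold higher with both factors than with Nurr1 (1.18). Fkbp2, the fourth ER member, differed by 0.58 from Control with both. Its dimmer probe gave -0.15, and this gap of 0.74 between the probes was the largest of any member in that comparison. Outside the ER, Fkbp4, a steroid receptor co-chaperone, differed by 0.50, 0.15 and 0.56 from Control, and Fkbp5, which restrains the glucocorticoid receptor, by -0.12, -0.38 and -0.52.

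The chaperones and lectins of the ER lumen had smaller differences, and 0 of 7 measured passed 2-fold in any comparison. Between 1.5% and 7.18% of all genes did so in 1 direction, so 0 of so few genes sets the class apart from nothing. At 1.5-fold 4 of the 7 were higher with both factors than with Nurr1, beside 9.61% of all genes. With both factors 1 was higher than in Control and 0 than with Foxa2, beside 13.7% and 9.77%. Hspa5, which encodes BiP, the main HSP70 of the ER and the usual gauge of the unfolded protein response, had 123.2, 141.2, 141.4 and 139.2 and was detected on no array, so its named probe gave no BiP measurement here. With both factors against Control all 7 measured were above 0, between 0.03 for Dnajc3 and 0.92 for Creld1. Dnajc10, at 0.14, had a dimmer second probe at -0.31, so its direction depends on the probe. Hsp90b1 (the ER HSP90, GRP94) had 4523.7, 4752.3, 6433.6 and 7117.3, and differed by 0.01, 0.37 and 0.53 from Control. Calr, the lectin chaperone calreticulin, had 3552.7, 2492.8, 4283.9 and 4553.1, and differed by -0.60, 0.10 and 0.21. The array with Nurr1 alone was the low one for Calr, and Calr was 0.80 higher with both factors than with Nurr1. Creld2 and Dnajb9, both induced by ER stress, had the same shape, with -0.43 and -0.40 for Nurr1 alone and 0.65 and 0.85 for both factors against Nurr1.

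The translocon genes, which build the entry channel, had 0 of 6 past 2-fold in any of the 5 comparisons. These are too few genes to set against the 1.5% to 7.18% of all genes past 2-fold in 1 direction. Ssr3, the brightest, differed by -0.39, 0.17 and -0.17 from Control. Ssr2 differed by 0.65 and Sec61b by 0.41 with both factors against Control, and the other 4 members by between -0.17 and 0.28. The median over the 6 genes was 0.06, 0.08 and 0.20 in the 3 comparisons with Control.

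The factors of the unfolded protein response and of ER-associated degradation had 0 of 7 past 2-fold in any of the 5 comparisons. The same 1.5% to 7.18% of all genes apply, and 7 genes are too few to set against them. Xbp1, the factor spliced by Ire1, had 2784.3, 3239.9, 3559.9 and 4603.5 and differed by 0.15, 0.19 and 0.58 from Control. Whether its probe tells spliced from unspliced Xbp1 was not examined. Atf4 had low signals of 174.1, 174.7, 202.6 and 241.1, and differed by -0.14, 0.04 and 0.40. Ddit3, which encodes CHOP and marks prolonged stress, differed by -0.19, -0.55 and -0.22, and its second probe by -0.51, -0.62 and -0.65. Herpud1, an ER-associated degradation gene, differed by -0.06, -0.14 and 0.02, and its second probe by -0.01, -0.09 and 0.24. Xbp1 and Atf4 thus stood above Control with both factors, Ddit3 below on both probes, and no difference reached 2-fold.

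**Figure D2:**
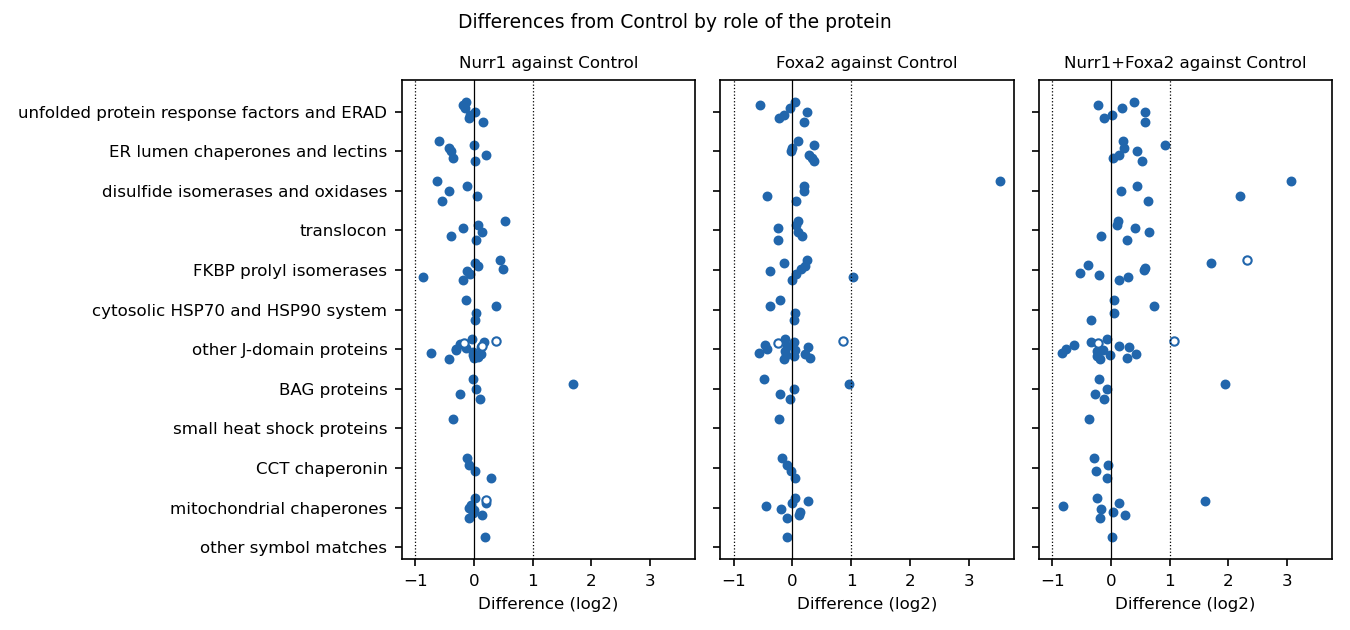
Log2 difference from Control of each measured member, 1 point a gene, by role of its protein, with Nurr1, Foxa2 and both factors in 3 panels; open points are bounds and dotted lines mark 2-fold. In the third panel the ER lumen and disulfide classes lie entirely above 0, while the CCT class lies entirely below 0 and between -0.28 and -0.05.

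The lumen, disulfide and translocon classes and the 4 ER FKBPs were then described together as 1 group of 23 genes, the ER members. The group leaves out the unfolded protein response and ER-associated degradation class, so it does not hold every member that acts in the ER. In that class 5 of 7 were above 0 and 2 below with both factors against Control, with a median of 0.19. This grouping was formed after values were seen, so it supports nothing by itself. With both factors against Control 21 of 22 measured were above 0, 1 was below and 4 passed 2-fold, with a median of 0.41. Of the members outside the group 3 of 51 were at least 2-fold higher, and of all measured genes 7.18%. Fkbp11 is among the 4 of the group, and as a bound it could only count as above 0. Among those detected on all arrays 20 of 21 were above 0. The median of 0.30 under that filter was taken over all 23, with the members left out by the filter entered as 0. It is therefore not the median of the 21. With the mean of probes 20 of 22 were above 0, with a median of 0.30. Over all measured genes 42.1% were above 0. Over the members outside the group, 21 of 51 measured were above 0. Their median was 0.00 with the unmeasured ones entered as 0, and -0.07 without floor and filter. Against Nurr1 alone 20 of 22 were above 0, with a median of 0.59, and against Foxa2 alone 16 of 22, with a median of 0.22, where 41.2% and 44.0% of all measured genes were above 0. Against Control, Foxa2 alone gave 16 of 21 above 0 and Nurr1 alone 10 of 21, where 45.1% and 45.4% of all measured genes were. Of the 21 members of the group detected on all 4 arrays, 14 had their highest value with both factors, 6 with Foxa2, 1 with Nurr1 and 0 on the Control array. Among all 7127 genes detected on all arrays, 22.8% were highest with both and 33.5% on the Control array.

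**Figure D3:**
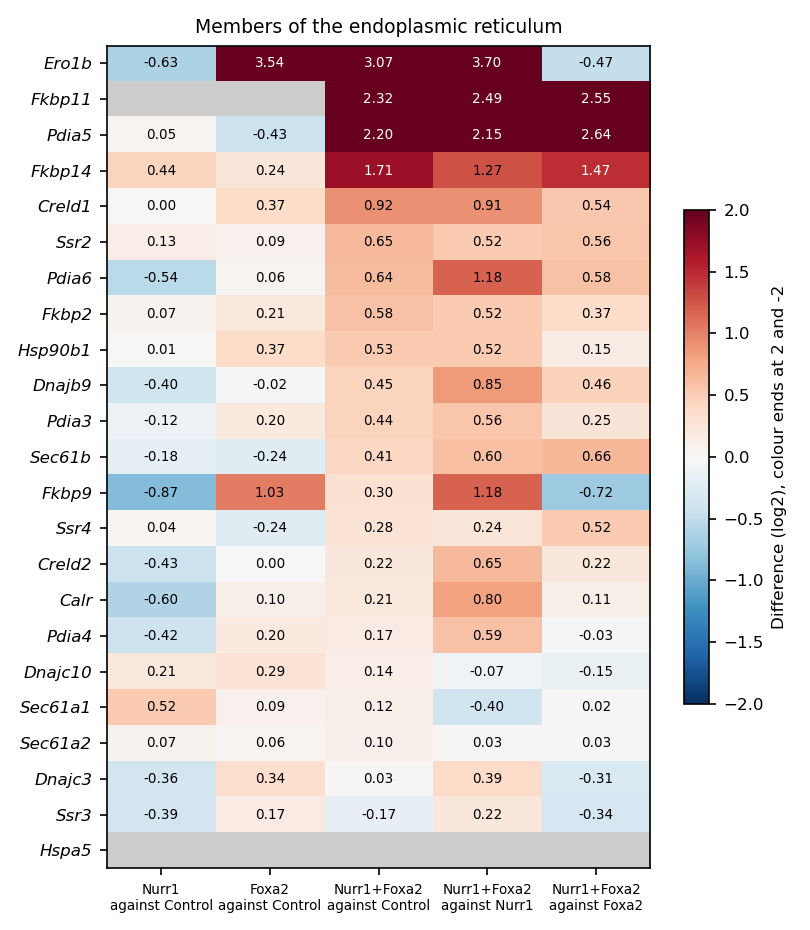
Log2 differences of the 23 ER members in the 5 comparisons, ordered by the difference between both factors and Control, with colour from -2 to 2 and grey where neither array detected the gene or the bound was under 1-fold. The third column is above 0 for 21 of 22 measured genes, with Ssr3 at -0.17 the exception. Each gene is shown by its brightest probe. In that column the second probes of Fkbp2 (-0.15), Dnajc10 (-0.31) and Sec61a2 (-0.07) were below 0. Those of Creld2 (0.44), Pdia5 (2.33) and Sec61b (0.10) were above 0.

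The genes that carry the ER stress response element shown above were 7, and 6 of them were measured. With Nurr1 alone 5 of the 6 were below 0, between -0.63 for Ero1b and -0.36 for Dnajc3, and Hsp90b1 was at 0.01. Of all measured genes 4242 of 7808 were below 0 in that comparison. With Foxa2 alone 5 of the 6 were above 0 against Control and Creld2 was at 0.00, with a median of 0.22, where 45.1% of all measured genes were above 0. With both factors all 6 were above 0 against Control and against Nurr1, with medians of 0.38 and 0.73, where 42.1% and 41.2% of all measured genes were above 0. Against Foxa2 alone 4 were above 0 and 2 below, with a median of 0.13, where 44.0% of all measured genes were above 0. Pdia5, Fkbp11, Fkbp14 and Dnajc15, which were highest with both factors, carried no full element in the stretches searched.

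Cell type markers also differed between the arrays. The summed signal of 11 progenitor and radial glia markers was 90986 on the Control array, 58448 with Nurr1, 85535 with Foxa2 and 46892 with both. That of 6 astrocyte markers was 44556, 39429, 32153 and 23278, that of 7 oligodendrocyte lineage markers 79556, 63355, 51321 and 33740, and that of 9 neuron markers 14372, 17140, 18119 and 13906. A few bright probes weigh most in such sums. With Nurr1 the astrocyte marker Gja1 had a signal of 29802.2 against 13955.8 in Control, while the median difference of the 6 astrocyte markers was -1.13 and 4 were at least 2-fold lower. With both factors against Control, 6 of the 9 neuron markers were above 0 with a median of 0.20, 2 were at least 2-fold higher (Stmn2 1.07, Nefm 1.66) and 1 lower (Rbfox3 -1.75). The progenitor, glial and neuron sums were all lowest on the array with both factors. The 5 dopamine neuron and floor plate markers summed to 569, 923, 10149 and 15410. The part of the cell types in the differences of the members was not tested.

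Among the cytosolic factors, Bag3, the BAG co-chaperone that couples HSP70 to autophagy and is a heat shock factor 1 target, differed most. Its signals were 1785.8 on the Control array, 5770.6 with Nurr1, 3762.0 with Foxa2 and 7342.6 with both. The Control array was lowest and all 3 arrays with a factor were above it. Bag3 was 3.24-fold above Control with Nurr1 (1.69), 3.88-fold with both (1.95) and 1.94-fold with Foxa2 (0.96), which is just under 2-fold. With both factors it was 0.70 (log2) below the sum of the single-factor differences, and it was not measured by a second probe. The other 4 Bag genes lay between -0.27 and -0.06 with both factors against Control.

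The 4 measured HSP70 and HSP90 system members lay between -0.34 and 0.74 with both factors against Control. Hspa8, the constitutive cytosolic HSP70, had signals between 58393.8 and 62247.5, close to the highest signal of any probe (64378 to 66419). It differed by between 0.03 and 0.05 from Control, but by -0.31 with Foxa2 under scaling to a common median. Its second probe, with signals from 42704.4 to 47946.3, differed by 0.34, 0.31 and 0.27. Hspa4, an HSP110 exchange factor, had 176.7, 219.0, 174.3 and 288.0 and was 2.18-fold higher with both than with Foxa2 (1.13). Its signals were low, and without background correction that difference was 0.66. Hsp90aa1, the inducible cytosolic HSP90, was detected on no array, so its named probe gave no measurement here.

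Of 19 other J-domain genes, 17 were measured with Nurr1 and 16 with both factors against Control. With both factors 1 passed 2-fold, where 7.18% of all genes were higher. Dnaja4, a DNAJA co-chaperone, was undetected at 142.2 on the Control array and had 203.4 with Nurr1, 274.9 with Foxa2 and 311.3 with both. It was at least 2.12-fold above Control with both, but 1.59-fold without background correction. Dnajb1, the main J-domain partner of HSP70 in the heat shock response, differed by 0.17, 0.03 and -0.34, and Dnajc7 by 0.00, 0.30 and 0.27. Dnajc24, the diphthamide synthesis factor Dph4, had signals of 1944.2, 1254.4, 1523.1 and 1254.7 and differed by -0.74, -0.57 and -0.84. It was the lowest member with Foxa2 and with both factors against Control, and its Control array was the high one. Dnaja1 was detected on no array, Dnajb3 on the Control array alone, Dnajb13 on the array with both factors alone, and Dnajb5 on the 2 arrays with Nurr1.

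The mitochondrial chaperones had 1 of 8 measured genes past 2-fold with both factors against Control, where 7.18% of all genes were higher. Dnajc15, a J-domain protein of the inner membrane import motor, had 1196.2 on the Control array, 1452.4 with Nurr1, 1621.5 with Foxa2 and 3960.0 with both. The array with both factors stood alone as the high one. Dnajc15 was 3.06-fold above Control (1.61), 2.64-fold above Nurr1 (1.40) and 2.56-fold above Foxa2 (1.35), with 0.21 and 0.26 for each factor alone. Hspd1 and Hspe1, the HSP60 and HSP10 of the matrix that share the promoter shown above, differed by 0.24 and -0.18 with both. The second Hspd1 probe gave -0.29. Hspa9, mitochondrial HSP70, differed by -0.01, 0.13 and 0.03. Dnajc11 was detected with Nurr1 alone.

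The CCT subunits build the ring that folds actin and tubulin. The 4 measured members, Cct3, Cct4, Cct6a and Cct8, lay between -0.28 and -0.05 with both factors against Control and between -0.12 and 0.29 with Nurr1. The dimmer Cct3 probe gave -0.45 with both and -0.02 with Nurr1. Cct7 was detected on no array, and Cct2 on the Foxa2 array alone. Of the small heat shock proteins, Hspb6 differed by -0.35, -0.23 and -0.37, and Hspb8 was detected on no array. Hspa12a and Fkbp1b were the remaining members detected on no array. Each of the 7 members detected on no array has 1 named probe, and an undetected probe does not show that the gene was silent.

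The design allows the value with both factors to be set against the sum of the single-factor differences on the log2 scale. Of the 70 members detected on all arrays, 4 lay at least 2-fold above the sum and 0 below it, where 2.93% of 7127 genes lay above and 3.06% below. At 1.5-fold 9 lay above and 1 below, beside 8.43% and 9.3% of all genes. The 4 at least 2-fold above the sum were Pdia5 (2.59), Dnajc15 (1.14), Pdia6 (1.12) and Fkbp14 (1.03). Fkbp11 could not enter, since 3 arrays did not detect it. Pdia6 and Fkbp14 were at 0.92 and 0.95 without background correction, so they pass by a narrow margin. Of the 70 members 46 lay above the sum and 24 below it, and of 21 ER members 18 lay above and 3 below. Among the 7127 genes 3347 lay above and 3780 below. The median was 0.05 over all 84 members, 0.36 over all 23 ER members and 0.00 over all 8980 named genes. In these medians the genes not detected on all arrays entered as 0.

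**Figure D4:**
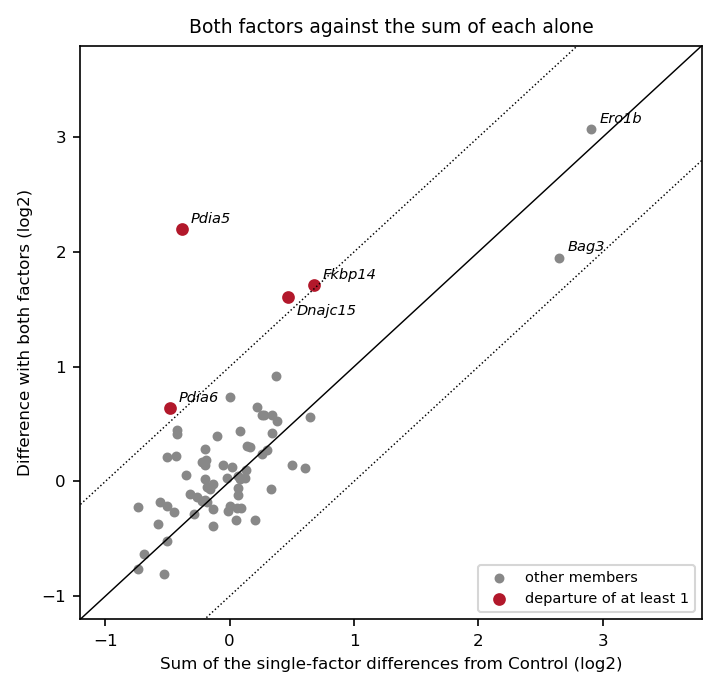
Log2 difference of both factors from Control (vertical) against the sum of the Nurr1 and Foxa2 differences (horizontal) for the 70 members detected on all arrays, with the line of equality and dotted lines at 1 above and below it. Pdia5, Dnajc15, Pdia6 and Fkbp14 lie past the upper dotted line, and Ero1b and Bag3 lie between the lines.

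Genes of the same pathways that the symbol rule does not name were listed from textbook roles. Of 66 unfolded protein response and ER-associated degradation genes, 49 had a named probe and 46 were measured with both factors against Control. Of these 34 were above 0 and 12 below, the median was 0.26, 2 were at least 2-fold higher and 0 lower. Of all measured genes 42.1% were above 0 and 7.18% at least 2-fold higher, so the share of the list past 2-fold was below that of all genes. At 1.5-fold 13 of the 46 were higher and 1 lower, beside 13.7% and 13.6% of all genes. Against Nurr1 alone 17 of 46 were higher and 2 lower at 1.5-fold, beside 9.61% and 7.14%. Against Foxa2 alone these were 6 and 0 of 48, beside 9.77% and 9.82%. The 2 past 2-fold against Control were Sel1l, the adaptor of the Hrd1 ubiquitin ligase, and Kdelr3, a receptor that returns proteins to the ER. Sel1l had 1578.5, 1514.6, 1792.5 and 5735.5 and was 3.32-fold above Control with both (1.73). Kdelr3 had 233.4, 340.1, 370.6 and 754.6 and was 3.59-fold above Control (1.84). Both genes were highest with both factors. Nurr1 alone gave 1 of 45 higher, Chac1, a target of the Atf4 branch, at 2.07-fold (1.05). Foxa2 alone gave 0 of 45. Of all measured genes 4.43% and 3.58% were higher in these 2 comparisons. Sil1, the exchange factor of BiP, was 2.71-fold higher with both than with Nurr1 (1.44). Against Nurr1 alone 3 of 46 were at least 2-fold higher with both, Sil1, Sel1l and Kdelr3, beside 4.43% of all genes. Against Foxa2 alone 3 of 48 were, Sel1l, Kdelr3 and the ER-bound factor gene Creb3l2 (2.00-fold), beside 4.84%. None was at least 2-fold lower in the 5 comparisons, where 1.5% to 4.81% of all genes were. Sel1l (1.88), Sil1 (1.16) and Creb3l2 (1.03) lay at least 2-fold above the sum of the single-factor differences and Chac1 (-1.18) below it. These were 3 and 1 of 45, beside 2.93% and 3.06% of all genes.

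Of 33 cytosolic and mitochondrial folding genes outside the rule, 26 had a named probe and 24 were measured. Their median was 0.05 with Nurr1, -0.02 with Foxa2 and 0.00 with both against Control. Grpel2, a mitochondrial HSP70 exchange factor, was 2.66-fold above Control with Nurr1 (1.41) and 2.21-fold with both (1.15), the only member of the list past 2-fold. Of all measured genes 4.43% and 7.18% were at least 2-fold higher in these 2 comparisons. Hsph1, an inducible HSP110, differed by 0.53, 0.00 and -0.38.

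**Figure D5:**
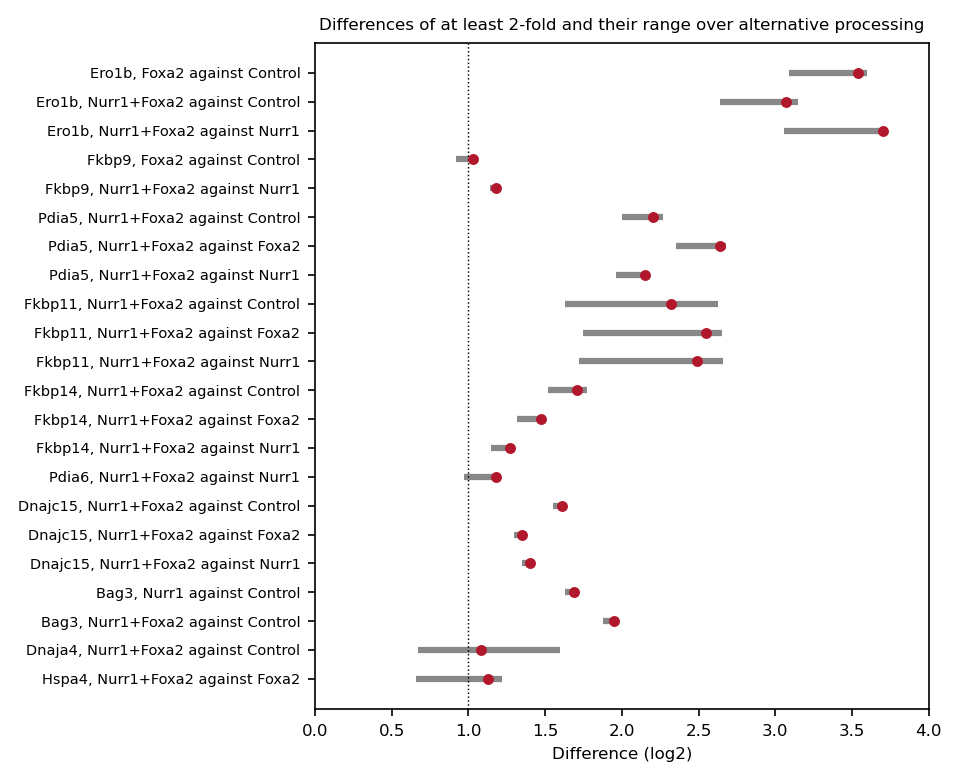
Log2 difference (points) of each member past 2-fold in the 5 comparisons between arrays, with the lowest and highest value over the alternative processing settings (bars) and a dotted line at 2-fold. The bars of Ero1b, Pdia5, Fkbp11, Fkbp14, Dnajc15 and Bag3 stay above the line, while those of Dnaja4, Hspa4, Pdia6 and Fkbp9 with Foxa2 against Control cross it.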

How the data were processed

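The deposited scanner table gives, per the file headers, 1 mean bead signal per probe and array (an intensity, linear and not normalized) and 1 detection p-value against negative-control beads. A second table deposited by the authors has log2 values for part of the probes, and from those values it is quantile normalized without background subtraction. How the scanner software made either table is not given in the sources used here. Gene symbols come from GEO's platform annotation, which covers the probes of the second table only, so 12451 probes are unnamed here.

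Signals were corrected and normalized with neqc of limma 3.58.1 in R 4.3.3 (background from the detection p-values, offset 16, quantile normalization, log2). Tables were handled in Python 3.11.15 with pandas 2.3.3 and numpy 2.4.6, and figures drawn with matplotlib 3.10.9. The normalization was tested on simulated data. Where a gene had several probes, the one brightest on average after normalization was used (18 members had more than 1 probe). A gene was detected at a detection p-value under 0.01, and an undetected dimmer value was raised to the lowest detected signal of its array. Genes undetected on both arrays, or with a bound under 1-fold, had no difference and entered medians as 0. Medians of the genes with the ER stress response element were taken over measured genes only. With 1 array a group no test between groups was possible, and the number of arrays limits the precision.

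Named members were those at least 2-fold different in any comparison or from additivity, the brightest of each role class, and a list of well-known folding and stress genes. Others named were chosen after their values were seen. Members and lists were chosen with earlier results of these data known. The 10 alternatives changed background correction, offset, normalization, source table, detection threshold, floor, probe choice, filter, fold and membership. Protein sequences were not used here.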

Additional observations from a re-analysis of the deposited data

Results flagged for a closer look

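Pdia5 is listed because the effect of adding Foxa2 differed in direction with and without Nurr1: Foxa2 alone gave -0.43 against Control, and Foxa2 on top of Nurr1 gave 2.15, a departure from additivity of 2.59 on the log2 scale. Pdia6 is listed by the same comparison for Nurr1, with -0.54 for Nurr1 alone and 0.58 for Nurr1 on top of Foxa2, a departure of 1.12. With 1 array a group neither difference was tested.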

How the results depend on the processing

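The counts of members were recomputed under 10 alternatives. At 1.5-fold in place of 2-fold, 4 members were higher with Foxa2 against Control, 11 with both against Control, 14 with both against Nurr1 and 9 above additivity, beside 8.24%, 13.7%, 9.61% and 8.43% of all genes. Lower members at 1.5-fold numbered 4 with Nurr1 against Control, 4 with both against Control, 1 with both against Nurr1, 1 with both against Foxa2 and 1 below additivity, beside 8.53%, 13.6%, 7.14%, 9.82% and 9.3%. Scaling to a common median left 1 member higher with Foxa2 against Control, without floor and filter 2 were higher with Nurr1 against Control, and 2 lay above additivity both in the authors' value table and without background correction. No median over members moved by more than the spread between probes. Of 1592 values of named members, 48 moved by at least that spread and 0 reversed a call. Ero1b against Nurr1 (8.34-fold) and the Fkbp11 bounds (3.10, 3.29 and 3.36-fold) were over 1.5 times smaller without background correction. Values fell under 2-fold for Dnaja4 (0.67), Hspa4 (0.66) and Pdia6 (0.97) without background correction. The ER members above 0 with both against Control stayed between 20 and 22, a check added after seeing the data. No paired analysis was possible because each group has 1 array. Near-background signals limit Dnaja4, Hspa4, Fkbp11 and Atf4, and Hspa8 lies near the top of the scale.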
